A study of Oryza sativa Indica Group with 6 samples.

Results

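The rice line Ossl was compared with the rice line OsPE on 4 of the 6 arrays of a study of T-DNA insertional mutants, namely the 2 arrays titled for Ossl and the 2 titled for OsPE. All probe sets other than the manufacturer's controls with identifiers starting in AFFX entered the comparison, which left 57258. Among these are 64 for reporter and vector sequences, of which 26 were tested and 2 passed. The third line, Osoc, with its 2 arrays, served only in the estimate of the spread and for values set beside the others. Each sample was total RNA of seedlings, 15 days after they germinated, grown under conditions called optimal, and was hybridised to the Affymetrix Rice Genome array. The organism label is the Indica group and the series text names Basmati, the aromatic long-grain type. Both lines carry a T-DNA insertion, the DNA that Agrobacterium moves into a plant genome. An untransformed line was not used here, so a value higher in Ossl may equally be called lower in OsPE, and neither the sites of insertion nor what the line names stand for is stated in the labels. The arrays of a line are called biological replications, with no statement of how many plants made up each.

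Rice seedlings meet microbes and wounding with jasmonate, a fatty acid hormone made through lipoxygenases and held in check by the JAZ repressor proteins. Downstream of it and of other signals, rice makes diterpenoid phytoalexins, the momilactones and phytocassanes, from enzymes whose genes lie in clusters, and secretes chitinases and other pathogenesis-related proteins. Iron in leaves is stored in vacuoles and ferritin, and chelated for transport by nicotianamine and mugineic acids.

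Deposited signals were scaled to a common trimmed mean on every array, and their medians lay between 37.3 and 42.8. Between the 2 arrays of a line, 12.1% of the probe sets tested differed over 2-fold in Ossl, 10.5% in OsPE and 11.3% in Osoc. Leaf markers checked the labelled tissue, and their signals summed to 302413 and 349612 in Ossl, against 305605 and 302278 in OsPE, and 0 of 10 rose and 1 fell. Root markers summed to 4176 and 4023 in Ossl, against 3605 and 3527 in OsPE, with 1 of 7 higher and 1 lower. Grain markers summed to 7145 and 7117 in Ossl, against 7958 and 7912 in OsPE, and the storage protein genes GLUA-1, GluC, GLUB-4 and prolamin lay too low to be tested. Anther and flower markers summed to 1571 and 1705 in Ossl, against 1904 and 1801 in OsPE. None of the 8 grain and 9 flower markers tested passed with limma, and 2 and 1 of them had an unadjusted p below 0.05, all lower. In such bulk samples, fewer cells of a type and less RNA per cell cannot be told apart.

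The added control transcripts read differently in the lines. The poly-A control transcripts, bacterial RNAs added to each sample before labelling, read lower in Ossl than in OsPE, with a mean log2 difference of -1.13 over the 12 probe sets at their 5' ends, -0.73 over 12 in the middle and -0.49 over 12 at the 3' ends. The ratio of the 5' to the 3' signal of the added dap transcript was 0.044 and 0.046 in Ossl, against 0.14 and 0.145 in OsPE. In Osoc it was 0.181 and 0.187. Rice's own GAPDH transcript had ratios of 0.111 and 0.108 in Ossl, against 0.116 and 0.111 in OsPE, its actin 0.133 and 0.092 in Ossl, against 0.136 and 0.127 in OsPE, and its cyclophilin 0.495 and 0.377 in Ossl, against 0.593 and 0.406 in OsPE. The lines overlapped for cyclophilin and for actin on these probe sets, and all 3 rice transcripts had the lower mean ratio in Ossl. Another actin pair read 62.2 and 152.1 at the 5' end in Ossl, against 147.4 and 138.2 in OsPE. At the 3' end it read 2444.5 and 2742.1 in Ossl, against 2266.2 and 2240.4 in OsPE. On that pair the lines did not overlap, with the ratio lower on both Ossl arrays. The hybridisation controls, added after labelling, read 0.33 to 0.41 higher (log2) in Ossl by the position of the probe set. The part of these differences in the results below was not tested.

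**Figure D1:**
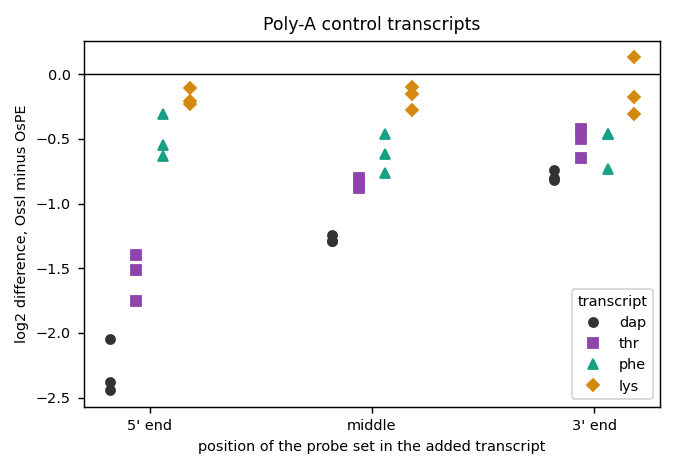
Difference in signal of the added poly-A control transcripts between the lines (y axis, log2 of signal + 16, Ossl minus OsPE, means of 2 arrays each) by the position of the probe set along the transcript (x axis); each point is 1 probe set. The dap and thr transcripts lie lowest at the 5' end, down to -2.44, while lys lies between -0.31 and 0.13 at all positions.

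Of 39629 probe sets bright enough to be tested, 1629 were higher in Ossl than in OsPE (4.11%) and 1509 lower (3.81%), 7.92% in all (limma, Benjamini-Hochberg adjusted p below 0.05, which is the meaning of passed, rose and fell here). Most of these differences were small. The median fold was 1.46 among the higher and 1.49 among the lower, and 1634 of the 3138 (52.1%) differed by under 1.5-fold. At least 2-fold were 443 higher (1.12%) and 318 lower (0.802%), at least 4-fold 119 and 45, and at least 16-fold 8 and 13. All folds are ratios of signal + 16. When the probe sets were split into 4 equal groups by brightness, the share that passed was 0.222% in the dimmest group and 17.9% in the brightest, where differences as small as 1.14-fold passed. In the dimmest group the smallest difference to pass was 3.5-fold.

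Counted by gene, each with its brightest probe set, 1150 of 16460 were higher in Ossl (6.99%) and 773 lower (4.7%). Of the 2294 genes with a name beyond a locus number, 236 were higher (10.3%) and 132 lower (5.75%), and the count of every gene list below is to be read against these shares. The median difference was 0.01 (log2) over the named genes and -0.02 over the probe sets. Leaving out OsPE replicate 1 left 1495 probe sets in all, and leaving out OsPE replicate 2 left 1520. Of the 191 members of the lists below that passed, 83 did so in each of the 6 fits that left out 1 array. Without modelling the variance as a trend of the signal, 382 passed. With 2 arrays against 2, an exact permutation test of 1 gene could not go below 0.333, so the calls rest on limma's pooling of the spread across probe sets.

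**Figure D2:**
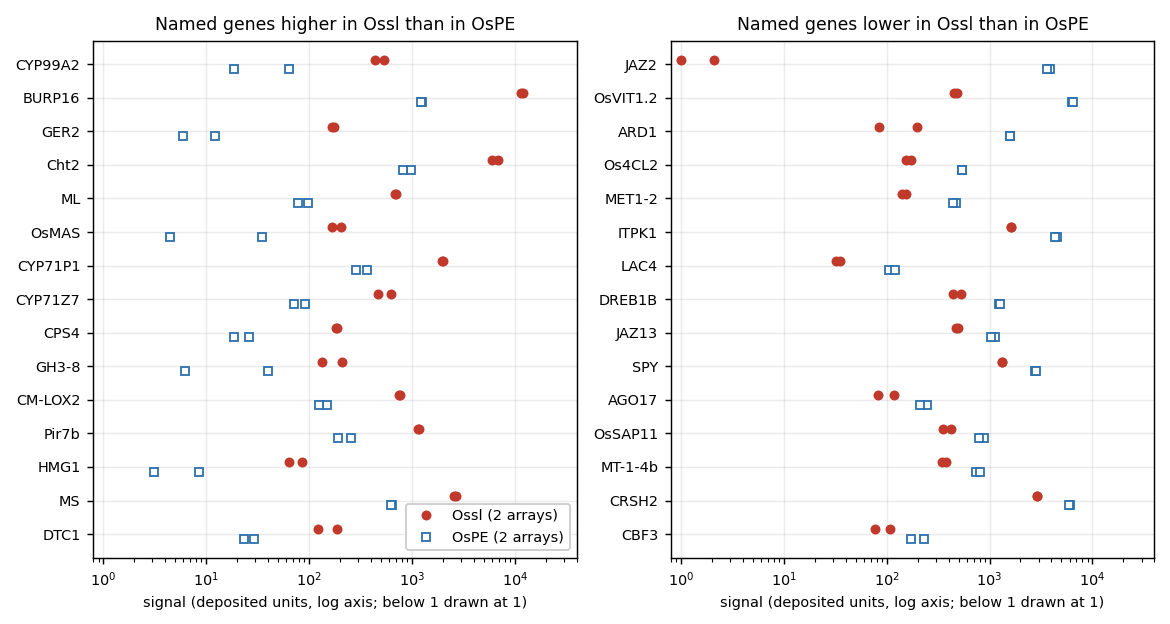
Signals on each array (x axis, log scale, deposited units) of the 15 named genes with the largest change in each direction (rows), filled circles for the 2 Ossl arrays and open squares for the 2 OsPE arrays. Only genes whose arrays did not overlap between the lines could enter, so the separation in each row was set by the choice. JAZ2 at 2.1 and 0.8 in Ossl is the lowest of the genes shown.

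Genes of jasmonate synthesis and signalling changed in both directions. Of 35 tested, 4 rose and 8 fell, with a median of -0.02 (log2). The extreme was JAZ2, a repressor of jasmonate responses on chromosome 7. Its signal was 2.1 and 0.8 in Ossl, against 3853 and 3644 in OsPE. Both Ossl arrays lie under their 40th percentiles of 25.1 and 24.4, while OsPE is among the bright genes, so no fold is given (adjusted p = 3.27e-12). In Osoc it read 3424 and 3728, close to OsPE. The probe set is of a kind that can match several related transcripts, and it is the one tested for the gene.

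Of the 12 JAZ genes tested, 5 fell and 1 rose. JAZ10 had 4779 and 5263.5 in Ossl, against 9737 and 9734 in OsPE, a 1.94-fold fall on its brightest probe set, and it fell 2.6-fold on the other. JAZ13 had 469 and 489.6 in Ossl, against 1143 and 1037 in OsPE and fell 2.23-fold (log2 difference -1.16 ± 0.14, SE, adjusted p = 0.000257). Both Ossl arrays lay under both OsPE arrays for each of these repressors. Arrays of the lines did not overlap, in either direction, for 49.2% of all probe sets tested. JAZ9 fell 1.99-fold, with 242 and 195.5 in Ossl, against 422 and 475 in OsPE. JAZ6, bright in both lines, fell 1.41-fold. JAZ11 alone among the JAZ genes rose, with 2343 and 2407 in Ossl, against 1780.2 and 1843 in OsPE. JAZ3, JAZ4, JAZ5, JAZ7, JAZ8 and JAZ12 did not pass, at 0.09, -0.04, 0.21, -0.11, -0.16 and 0.23 (log2).

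Lipoxygenases, which oxidise the fatty acids from which jasmonate and other oxylipins are made, were higher in 3 of 6 cases and lower in 1. CM-LOX2 had 739.7 and 759 in Ossl, against 151 and 126 in OsPE, a 4.97-fold rise (adjusted p = 1.6e-05). Its chromosome 8 neighbour CM-LOX1 rose 2.6-fold, with 1902 and 1476 in Ossl, against 685 and 590.0 in OsPE. LOX5 rose 1.5-fold, LOX2 fell 1.33-fold and LOX1.1 and LOX3 did not pass (log2 differences 0.84 and 1.40). Further along the pathway, the reductase gene OPR10 fell 1.52-fold, with 647 and 648 in Ossl, against 1083 and 913.5 in OsPE. GH3.5 fell 1.35-fold. The allene oxide synthase genes AOS1, AOS2 and AOS3 and the receptor genes COI1, COI1B and COI2 did not pass, the last 3 lying between -0.12 and -0.01. Without the variance trend 1 rose and 1 fell, CM-LOX2 and JAZ2. Without OsPE replicate 2, 5 fell, and LOX2 passed in 1 of the 6 fits that left out 1 array.

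**Figure D3:**
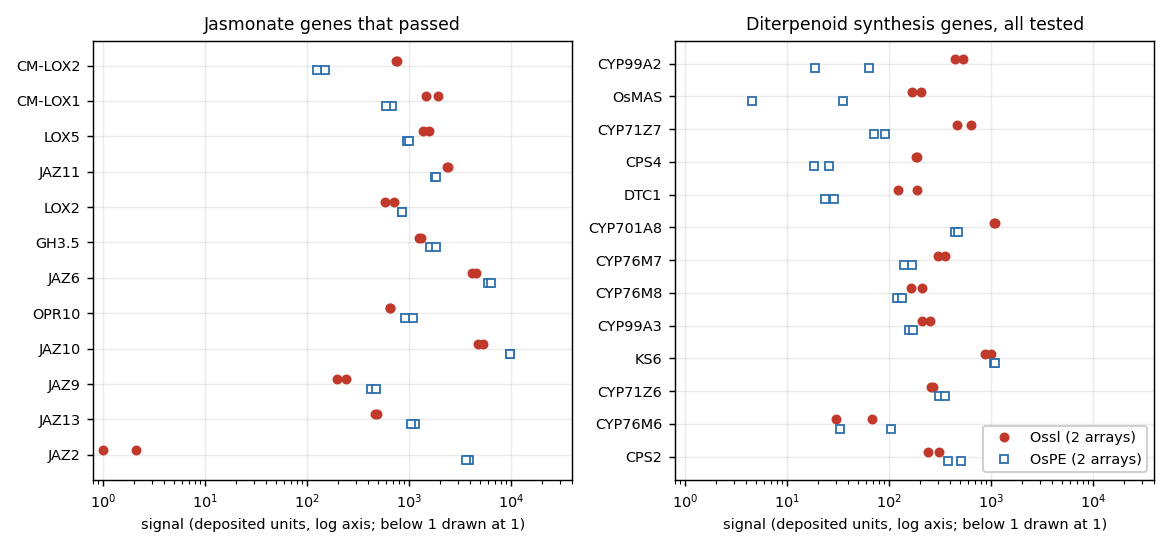
Signals on each array (x axis, log scale, deposited units; filled circles Ossl, open squares OsPE) of the 12 jasmonate genes that passed (left) and of all 13 diterpenoid synthesis genes tested (right), ordered by their difference. On the left the lipoxygenases CM-LOX2 and CM-LOX1 stand at the top and 4 JAZ genes at the bottom; on the right the 7 genes at the top passed and the 6 below did not.

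Of the genes of diterpenoid phytoalexin synthesis, 7 of 13 tested rose and 0 fell, with a median of 1.02 (log2). CPS4, the cyclase that makes the precursor of the momilactones, had 183 and 188 in Ossl, against 18.5 and 26.1 in OsPE. OsMAS, the dehydrogenase of the last step to momilactone A, had 204 and 168 in Ossl, against 35.1 and 4.5 in OsPE. CYP99A2, a cytochrome P450 of the same branch, had 531 and 441 in Ossl, against 63.8 and 18.8 in OsPE, a 9.49-fold rise (log2 difference 3.25 ± 0.36, SE, adjusted p = 0.000106). In each of these 3 genes at least 1 OsPE array lay below its 40th percentile, of 23.9 and 23.8, and both Ossl arrays lay far above theirs. In the reference annotation (assembly ASM3414082v1), these 3 genes and CYP99A3 lie within 9 consecutive genes of chromosome 4. CYP99A3 did not pass, with 252.5 and 211 in Ossl, against 158 and 171 in OsPE.

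The other cluster lies on chromosome 2, where 7 list members fall within 12 consecutive genes and did not move together. DTC1, also called KSL7, the synthase that makes the precursor of the phytocassanes, had 123 and 188 in Ossl, against 23.4 and 29.0 in OsPE and passed (adjusted p = 0.00422). CYP71Z7, a cytochrome P450 that acts on that product, had 631 and 464 in Ossl, against 92.0 and 71.0 in OsPE, a 5.75-fold rise. A gene to which the annotation gives only a number, LOC4329723, lies between CYP76M8 and DTC1. It rose, with 993 and 1091 in Ossl, against 90.0 and 78.7 in OsPE, and is not counted in the list. Among the same neighbours CPS2 had 307 and 242 in Ossl, against 503 and 382.5 in OsPE, KS6 had 993 and 869 in Ossl, against 1075 and 1099 in OsPE and CYP71Z6 had 268 and 259.9 in Ossl, against 308 and 353.5 in OsPE, all lower in Ossl without passing. CYP76M8 and CYP76M6 did not pass, at 0.51 and -0.32 (log2). On chromosome 6, CYP701A8 rose 2.31-fold, with 1088 and 1079 in Ossl, against 445 and 474.5 in OsPE. The gene that the annotation names CYP76M7, also placed on chromosome 6, rose 2.03-fold, with 354 and 304 in Ossl, against 168 and 139.9 in OsPE. Members entered the list by their names in the annotation, and whether each name sits on the right gene was not tested. The calls of CPS4, OsMAS, CYP99A2, CYP71Z7 and CYP701A8 held in each fit that left out 1 array, and 3 of the 7 passed without the variance trend.

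Pathogenesis-related proteins, chitinases included, had 13 genes tested, 4 of them higher and 0 lower, with a median of 0.17 (log2). Cht2, a chitinase, which cleaves the chitin of fungal walls, had 6914.5 and 5955 in Ossl, against 976 and 823 in OsPE. That is a 7.05-fold rise (adjusted p = 5.21e-09), and another probe set rose 7.41-fold while the dimmest, at 137 and 129 in Ossl, against 62.9 and 38.7 in OsPE, did not pass (adjusted p = 0.0629). The chitinase gene CH16 rose 3.92-fold, with 2629.7 and 2852 in Ossl, against 699 and 676 in OsPE. Pir7b, an esterase gene known for its induction by bacteria, had 1131.5 and 1166 in Ossl, against 253 and 191 in OsPE, a 4.93-fold rise. PBZ1, a protein of the PR10 family, was bright in both lines and rose 1.72-fold, with 12934 and 12774 in Ossl, against 7728 and 7195 in OsPE. For all 4 genes every Ossl array exceeded every OsPE array. Over all probe sets tested, 49.2% had no overlap between the lines in 1 direction or the other. The other chitinase genes did not pass, CH6 with a log2 difference of 1.03 (adjusted p = 0.127) and the rest between -0.25 and 0.38.

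Several other genes, some of them known from defence or stress, stood among the largest rises. BURP16, which encodes a protein with the plant-specific BURP domain, had 11519 and 12077 in Ossl, against 1248.5 and 1221 in OsPE. The 9.45-fold rise (log2 difference 3.24 ± 0.08, SE, adjusted p = 1.58e-10) put it among the brightest genes of Ossl, and in Osoc it read 247 and 251. Of the 5 BURP genes tested, BURP17 rose 2.12-fold and BURP3 1.26-fold, and BURP2 and BURP13 did not pass. ML, also named salT, a mannose-binding lectin induced by salt, had 704 and 684 in Ossl, against 78.7 and 96.7 in OsPE, a 6.87-fold rise, and its second probe set rose 6.21-fold. CYP71P1, the tryptamine hydroxylase that makes serotonin, had 1936 and 1993 in Ossl, against 365 and 286 in OsPE, a 5.84-fold rise (adjusted p = 1.78e-07). The gene listed as MS had 2649 and 2588 in Ossl, against 634 and 629 in OsPE and rose 4.07-fold. Among 8 germin-like proteins, secreted proteins of the cell wall, 1 passed: GER2 read 168 and 175 in Ossl, against 12.2 and 5.9 in OsPE, the OsPE arrays being below the 40th percentile (adjusted p = 0.000113). HMG1 read 85.6 and 64.5 in Ossl, against 3.1 and 8.6 in OsPE, again with OsPE below that level.

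Glutathione S-transferases, which conjugate toxic compounds, rose in 3 of 6 cases, with all 6 above 0 and a median of 0.50 (log2). GST1 had 459 and 537 in Ossl, against 158.5 and 149 in OsPE, GSTU6 had 999.6 and 1105 in Ossl, against 443.5 and 398 in OsPE and both passed, at 3.02-fold and 2.45-fold. GST-II rose 1.32-fold. These 3 calls held in each fit that left out 1 array. Of 6 WRKY factors, regulators of defence genes, 3 rose and 1 fell. OsWRKY24 rose 1.66-fold, with 553 and 631 in Ossl, against 341 and 359 in OsPE, OsWRKY62 rose 1.61-fold and OsWRKY76 rose 1.39-fold, while OsWRKY71 fell 1.34-fold, with 2668 and 2899 in Ossl, against 3770.0 and 3719 in OsPE. The WRKY rises numbered 0 without OsPE replicate 1, 2 without OsPE replicate 2, and 1 when either Ossl array was left out.

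The phenylpropanoid genes, which lead to lignin and flavonoids, split by member. Of 24 tested, 7 rose and 3 fell, with a median of 0.11 (log2). The 4-coumarate:CoA ligases, which activate the acids for that pathway, went both ways. Os4CL5 had 752.5 and 687 in Ossl, against 206 and 179 in OsPE, a 3.53-fold rise, and Os4CL2 had 171 and 153 in Ossl, against 537.5 and 544.5 in OsPE, a 3.13-fold fall. PAL06, of the enzyme family at the entry of the pathway, had 271 and 467 in Ossl, against 113 and 97.6 in OsPE and rose 3.08-fold, with 2.57-fold on its second probe set. Laccases, which polymerise lignin, also split. LAC7 fell 1.34-fold and LAC4 had 32.1 and 35.0 in Ossl, against 107 and 120.4 in OsPE and fell 2.61-fold, whereas LAC10 rose 2.4-fold. LAC19 read 90.2 and 92.2 in Ossl, against 18.5 and 5.6 in OsPE, with OsPE below the 40th percentile. CAD6, of the last step to the lignin alcohols, rose 2.01-fold. The number that rose was 1 without Ossl replicate 2, 2 without OsPE replicate 2 and 4 without OsPE replicate 1, and the calls of Os4CL5, Os4CL2 and LAC7 held in each fit that left out 1 array.

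Of the cellulose synthase family, 3 of 30 rose and 0 fell, including 2 of the 9 CESA genes. CESA7 and CESA4, subunits of the secondary wall complex, rose 1.62-fold and 1.57-fold, with 906 and 908 in Ossl, against 662 and 463 in OsPE for CESA7. The second probe set of CESA4 did not pass, at 331 and 217 in Ossl, against 176 and 218 in OsPE. The third gene of the family to rise was CSLE1, at 1.34-fold. The other 7 CESA genes did not pass. When OsPE replicate 2 or either of the Ossl arrays was left out, CSLE1 was the 1 call left in the family. None of 23 expansins and xyloglucan enzymes passed with limma, 3 higher and 2 lower having an unadjusted p below 0.05. The largest difference was that of EXPB7, at -1.26 (adjusted p = 0.236).

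Iron handling differed most through 1 gene. OsVIT1.2, a transporter that moves iron into the vacuole, had 479.6 and 449 in Ossl, against 6269.7 and 6495 in OsPE, a 13.3-fold fall (log2 difference -3.74 ± 0.08, SE, adjusted p = 3.27e-11). Osoc read 18285 and 15969.7, so Ossl was the lowest and Osoc the highest of the 3 lines. Of 45 genes of iron and zinc transport and chelation, 5 fell and 1 rose, with a median of -0.03. Its relative OsVIT1 fell 1.19-fold, with 2196 and 2306.5 in Ossl, against 2632 and 2731 in OsPE. In the YSL family, transporters of chelated metals, osysl16 fell 1.53-fold, osysl6 1.16-fold and osysl15 1.66-fold, while osysl12 rose 1.23-fold. The nicotianamine synthase genes NAS1, NAS2 and NAS3 did not pass, at 0.26, -1.82 and -0.15 (log2). Metallothionein MT-1-4b, a small metal-binding protein, had 378 and 344 in Ossl, against 736 and 802 in OsPE and fell 2.08-fold. Of the list's calls, OsVIT1.2 and osysl16 held in each fit that left out 1 array and osysl15, osysl6 and OsVIT1 in at most 1 of the 6. The rise of osysl12 was lost when any of the 4 arrays of the compared lines was left out.

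ARD1 gave the second largest fall among the named genes that have a fold. It stands for acireductone dioxygenase of the methionine salvage cycle, although the annotation's record also lists names of a heat shock factor. It had 199.6 and 83.7 in Ossl, against 1593 and 1580.3 in OsPE on its brightest probe set, a 10.9-fold fall (adjusted p = 8.96e-06). The second probe set did not follow, at 332 and 342 in Ossl, against 284 and 364 in OsPE. Of 12 genes in the ethylene list, counting ARD1 and ARD' 4, a second acireductone dioxygenase by its symbol, 3 fell and 1 rose. Besides ARD1, ARD' 4 fell 1.27-fold and ACO1, the oxidase of the last step, 1.31-fold, while the factor gene EIL1B rose 1.17-fold. The EIL1B call held in 2 of the 6 fits that left out 1 array. ITPK1, an inositol phosphate kinase, had 1616 and 1612 in Ossl, against 4549.9 and 4333 in OsPE, a 2.73-fold fall. In Osoc it had 1558 and 1535. INO1, the synthase at the start of inositol synthesis, rose 1.89-fold, with 1899 and 1806 in Ossl, against 899.6 and 1051 in OsPE.

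Among transporters of nutrients and sugars, lists held few calls on either side. In nitrogen transport and assimilation, 2 of 23 rose and 3 fell: the ammonium transporter gene AMT3-2 rose 2.59-fold, with 963.5 and 882 in Ossl, against 337 and 354 in OsPE, while AMT1-2 and AMT3-3 fell 1.79-fold and 1.59-fold. Potassium and sodium transport had 3 of 28 higher and 1 lower, led by HAK1, a high-affinity potassium transporter of roots, with 1271 and 1135 in Ossl, against 497 and 578.5 in OsPE, a 2.2-fold rise. The sugar list had 3 of 38 higher and 3 lower. OsSUS1, a sucrose synthase, rose 2.08-fold, the monosaccharide transporter MST3 rose 1.67-fold, and OsSWEET2a, of the SWEET sugar transporters, fell 1.52-fold. Of 24 aquaporins, 1 rose: OsPIP1;3 had 4142 and 4697 in Ossl, against 2171 and 2186 in OsPE, a 2.02-fold rise. Phosphate genes had 1 of 16 higher, OsPht1;8, and 1 lower, OsSPX2. Of 12 starch genes 1 fell, SS2. In each fit that left out 1 array AMT3-2, HAK1, OsSUS1, MST3, OsSWEET2a and OsPIP1;3 passed, while AMT1-2, AMT3-3, OsPht1;8, OsSPX2 and SS2 did not pass without OsPE replicate 1. The nitrogen falls numbered 1 without Ossl replicate 1 and 0 when any of the other 3 arrays of the compared lines was left out, and the potassium rises 1 without OsPE replicate 1 or Ossl replicate 1.

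Gibberellin, auxin and cytokinin genes each had calls in both directions. SPY, which encodes a repressor of gibberellin signalling, had 1309 and 1316 in Ossl, against 2787 and 2824.5 in OsPE, a 2.12-fold fall (adjusted p = 1.93e-06), with 1468 and 1539.7 in Osoc. In the same list of 16, GA20OX3, of gibberellin synthesis, rose 1.76-fold, and the receptor gene gid1 rose 1.29-fold. Of 53 auxin genes 9 rose and 1 fell, with a median of -0.02. GH3-8, whose enzyme joins auxin to amino acids, had 134 and 209 in Ossl, against 6.3 and 39.9 in OsPE, and GH3.2 had 166 and 154 in Ossl, against 29.2 and 49.2 in OsPE and rose 3.25-fold. IAA2 and IAA30, auxin response repressors, rose 1.56-fold and 1.72-fold, and SAUR39 rose 1.83-fold. The auxin rises numbered 2, IAA2 and SAUR39, without OsPE replicate 1 and 3 without Ossl replicate 2, and the GH3-8 call ended in both fits. GA20OX3 and gid1 did not pass without OsPE replicate 1, and 1 of them passed without Ossl replicate 1 or Ossl replicate 2.

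Of 29 cytokinin genes 6 fell and 2 rose, with a median of -0.10. The receptor genes HK3 and HK5 fell 1.29-fold and 1.26-fold, the response regulators OsRR9, OsRR1 and OsRR4 fell 1.57-fold, 1.66-fold and 1.39-fold, and the oxidase gene CKX4 fell 1.6-fold. LOGL3 and LOGL9, of cytokinin activation, rose 1.38-fold and 1.8-fold. The falls numbered 3, HK3, OsRR9 and CKX4, without OsPE replicate 1 or Ossl replicate 2. None of 17 brassinosteroid genes passed with limma, 2 higher and 1 lower having an unadjusted p below 0.05, and CYP734A4 had the largest difference at 0.67 (adjusted p = 0.242).

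Abscisic acid genes and those of dehydrins and other late embryogenesis abundant proteins numbered 29, of which 5 were higher and 1 lower, with a median of 0.17. LEA19 had 1039.8 and 1076 in Ossl, against 341 and 418.5 in OsPE, a 2.73-fold rise, and Osoc was close to Ossl, at 1180.4 and 1081. RAB21, a dehydrin that protects cells from drying, rose 1.92-fold, with 2282 and 2204 in Ossl, against 1270.1 and 1055 in OsPE, and its second probe set rose 1.88-fold. RAB16B rose 1.59-fold, Dhn1 1.35-fold and the kinase gene OsSAPK7 1.51-fold. The second probe set of Dhn1 had the opposite sign, at 16.6 and 27.4 in Ossl, against 62.6 and 42.1 in OsPE. It did not pass (log2 difference -0.85, adjusted p = 0.323 with limma). ABA8OX1, which breaks abscisic acid down, fell 1.5-fold. Among 49 other protein phosphatases of the PP2C family, 4 fell and 1 rose, DCW11 falling 1.69-fold. The rises of the abscisic acid list numbered 3 without OsPE replicate 2 or Ossl replicate 1, and the phosphatase falls 2 when either OsPE array was left out, with LEA19, RAB21 and DCW11 passing each time.

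Among the regulators of cold and drought responses, DREB1B had 444 and 525 in Ossl, against 1244 and 1268 in OsPE, a 2.55-fold fall, and CBF3, also called DREB1A, had 77.2 and 109 in Ossl, against 171 and 231 in OsPE and fell 1.99-fold (adjusted p = 0.0325). Of the 14 DREB and NAC factors 3 fell and 1 rose. NAC071 fell 1.63-fold, with 3702 and 3729 in Ossl, against 6152 and 5977 in OsPE, and its 2 other probe sets fell 1.9-fold and 2.07-fold. NAC068 rose 2.07-fold, with 1022 and 1048 in Ossl, against 486 and 495 in OsPE. The zinc finger gene OsSAP11, of the stress-associated proteins, had 356.5 and 420.3 in Ossl, against 893 and 786 in OsPE and fell 2.12-fold. CBF3 did not pass in 9 of the 17 alternatives run, whereas DREB1B passed in all of them.

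Heat shock proteins and chaperones had 8 of 42 higher and 0 lower, with a median of 0.06. HSP24.1 had 1289 and 1231 in Ossl, against 414 and 529 in OsPE, a 2.63-fold rise, and HSP18.1 had 546 and 619 in Ossl, against 219.5 and 293 in OsPE, a 2.21-fold rise, with 3.14-fold on its other probe set. The small heat shock proteins hsp17.9 and HSP16.9B rose 1.65-fold and 1.68-fold, and the endoplasmic reticulum chaperones BIP1 and OsPDIL1-1 1.21-fold and 1.22-fold. Of 18 heat shock factors, HSF23 rose 2.02-fold, HSF03 rose 1.38-fold and HSF07 fell 1.51-fold. The rises of the chaperones numbered 3, HSP24.1, HSP18.1 and hsp17.9, without OsPE replicate 1, 4 without OsPE replicate 2 and 5 with each array centred on its median.

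Of 51 genes of calcium-dependent kinases, CBL-interacting kinases (CIPK) and the CBL proteins, which are calcium sensors and not kinases and numbered 7, 0 rose and 6 fell, with a median of -0.04, and 5 of those 6 were among the 24 CIPK genes. CIPK1 had 8873 and 9366 in Ossl, against 13812 and 13406 in OsPE, a 1.49-fold fall, CIPK17 fell 1.56-fold, CIPK6 1.85-fold, CIPK5 1.35-fold and CIPK3 1.32-fold. These kinases relay calcium signals to channels and transporters. CPK7 was the sixth, at 1.27-fold. At an unadjusted p below 0.05, 5 of the 51 were higher. Of 26 calmodulins and calmodulin-like proteins, which bind calcium but have no kinase domain, 6 rose and 2 fell, with a median of 0.17. CML4 rose 1.71-fold, with 5314 and 4861 in Ossl, against 3114.5 and 2819.8 in OsPE, and CML31 rose 1.52-fold. CML16 and CML15 fell 1.32-fold and 1.53-fold. Whether the 2 lists differ from each other was not tested, and without the variance trend none of these genes passed.

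Enzymes of peroxide and superoxide had 5 of 25 higher and 3 lower. AOX1, the alternative oxidase of mitochondria, rose 1.87-fold, with 1325 and 1363 in Ossl, against 667 and 762 in OsPE, and OsrbohB, an oxidase that makes superoxide at the cell surface, fell 1.49-fold, with 4995 and 4928 in Ossl, against 7271 and 7534 in OsPE. The catalase gene CAT-B rose 1.24-fold, and 1.2-fold on another probe set. Its remaining probe sets did not pass, at 0.11, 0.16 and -0.36 (log2). Of 16 MAP kinases, BIMK2 rose 1.51-fold and MPK8 fell 1.19-fold. Of 26 beta-glucosidases, which free sugars from stored conjugates, 2 rose and 3 fell. BGLU30 had 356 and 277 in Ossl, against 64 and 81.8 in OsPE, a 3.73-fold rise, with 3.39-fold on its other probe set, and BGLU22 rose 2.28-fold. The peroxide list had 2 rises when either OsPE array was left out and 3 without Ossl replicate 2, and its falls numbered 1 without OsPE replicate 2. The calls of AOX1, OsrbohB, BGLU30 and BGLU22 held in each fit that left out 1 array, BIMK2 and MPK8 did not, and the beta-glucosidase falls numbered 0 without OsPE replicate 2 or Ossl replicate 2.

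Cytosolic ribosomal protein genes had the largest share of higher members among the lists, with 16 of 24, 0 lower and a median of 0.22 (log2). The changes were small. RPL30 rose 1.49-fold, with 7118.5 and 7610.2 in Ossl, against 4973 and 4879 in OsPE, RPL9 rose 1.3-fold and RPL11 1.28-fold, and the other 13 rose by 1.14-fold to 1.2-fold. With each array centred on its median, 3 passed, and without the variance trend 0 passed. When either OsPE array was left out RPL30, RPL9 and RPL11 were the 3 that passed, and without Ossl replicate 2, 10 passed. In Osoc the same genes stood above OsPE too, with 19 of 24 passing in that comparison, which shares the OsPE arrays.

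Photosynthesis genes had 1 call. Of 16 genes of photosystems, light harvesting and Rubisco, 0 rose and 1 fell, and the differences ran from -0.34 to 0.24 (log2). The one was OSA15, a photosystem I subunit, with 4324 and 4242 in Ossl, against 5299 and 5579.8 in OsPE. At an unadjusted p below 0.05, 2 were higher and 3 lower, and 5 of the 16 rose without Ossl replicate 1. In chlorophyll metabolism 2 of 22 rose and 3 fell. SGR, the stay-green protein that starts chlorophyll breakdown, rose 2.31-fold, with 1908 and 1425.5 in Ossl, against 707 and 702 in OsPE, and its second probe set rose 1.82-fold. NOL rose 1.22-fold, a call lost when any of the 4 arrays of the compared lines was left out, and its second probe set was at -0.01 (log2, adjusted p = 0.982 with limma). CHL9, a magnesium chelatase subunit, fell 1.57-fold, CAO 1.26-fold and GluTR 1.23-fold. These 3 falls numbered 0 when either OsPE array was left out and 1 without Ossl replicate 2, while SGR rose in each fit that left out 1 array. CRSH2, a plastid enzyme that makes the alarm signal ppGpp, had 2863 and 2910.1 in Ossl, against 6052 and 5948 in OsPE, a 2.07-fold fall (adjusted p = 3.4e-07).

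Genes of growth and gene regulation had few calls. Of 68 genes of the cell cycle and replication, 1 rose, CYCP3-1, and 4 fell, CDKF-3 by 1.43-fold and KRP4 by 1.45-fold. Chromatin and small RNA genes had 0 of 43 higher and 3 lower, with 4 higher at an unadjusted p below 0.05. MET1-2, a maintenance DNA methyltransferase, had 155.5 and 142.5 in Ossl, against 475 and 446 in OsPE, a 2.89-fold fall. AGO17, an Argonaute protein, had 119 and 83.4 in Ossl, against 249 and 212 in OsPE and fell 2.12-fold, and OsSGS3, of small interfering RNA production, fell 1.46-fold. MET1-2 was the 1 call of that list that held when either OsPE array was left out, and 1 fall was also counted without Ossl replicate 2. The cell cycle falls numbered 2 without OsPE replicate 1 or Ossl replicate 1 and 1 without OsPE replicate 2. The homeobox list had 0 of 43 higher and 3 lower, at most 1.33-fold, with 2 higher at an unadjusted p below 0.05 and none passing when either OsPE array was left out. The MADS list had Lhs1 higher, at 2.73-fold, and FDRMADS8 lower. Among 20 light and clock genes 1 passed, the clock gene OsPCL1, with 975 and 1064 in Ossl, against 598 and 432 in OsPE, a 1.97-fold rise.

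**Figure D4:**
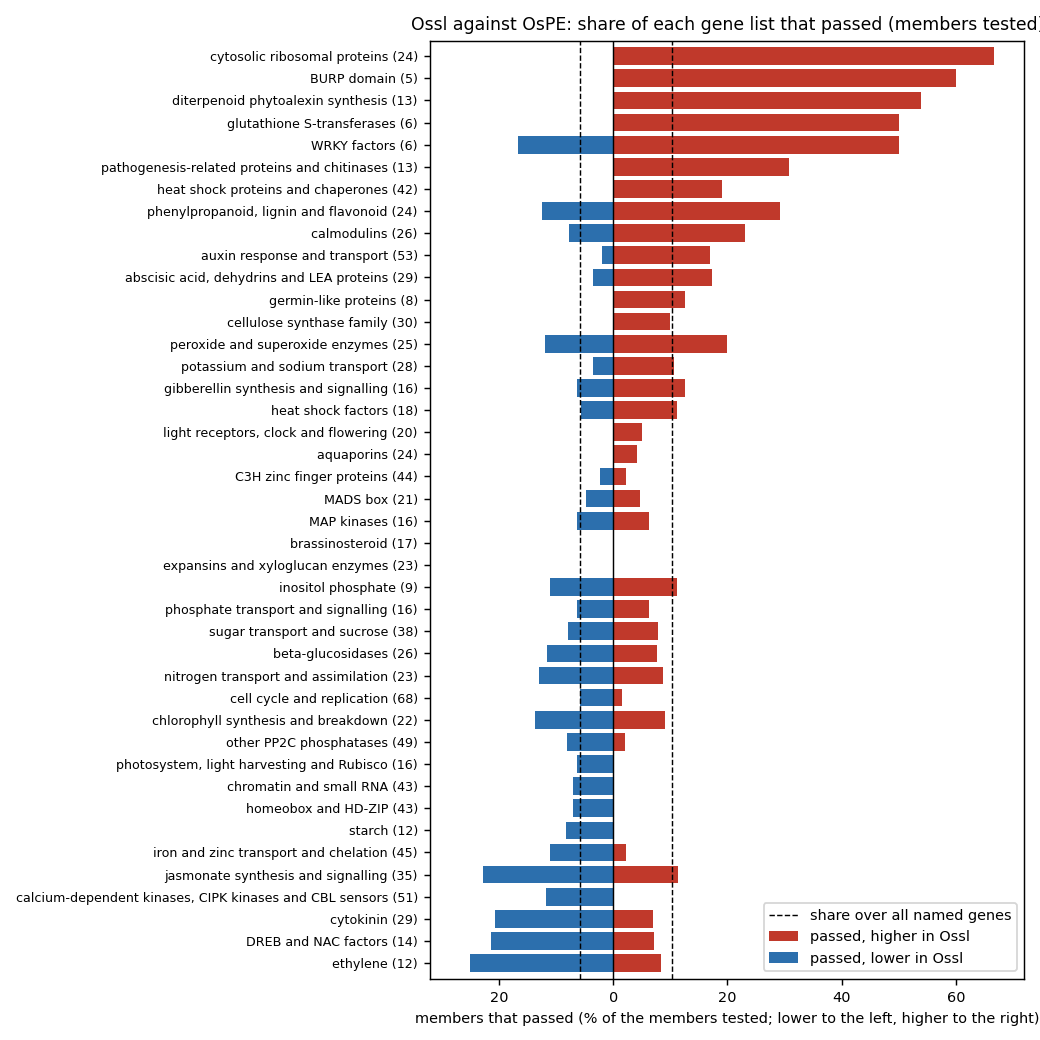
Share of the tested members of each gene list that passed (x axis, percent; red bars to the right higher in Ossl, blue bars to the left lower), with the number tested in brackets and dashed lines at the shares over all named genes, 10.3% and 5.75%. Lists run from those with the largest surplus of higher members at the top, cytosolic ribosomal proteins, BURP and diterpenoid genes, to ethylene, DREB and NAC, and cytokinin genes at the bottom.

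Among the probe sets with at least 16-fold differences, JAZ2 was the only one of a named gene, and the others have no name in the tables used. LOC4345926, on chromosome 8, had 12608 and 14204 in Ossl, against 87.3 and 55.9 in OsPE, a 155-fold rise (adjusted p = 6.58e-10). A probe set matched to no gene had 10834.5 and 10037 in Ossl, against 81.7 and 86.6 in OsPE, a 104-fold rise. In the other direction LOC4340728, on chromosome 6, had 27.8 and 4.1 in Ossl, against 4384 and 4307 in OsPE, and its second probe set had 10.5 and 29.9 in Ossl, against 1343 and 1475.5 in OsPE. Another probe set matched to no gene had 28.0 and 36.6 in Ossl, against 5320.4 and 5101.5 in OsPE, a 109-fold fall. Osoc was close to OsPE for LOC4345926, at 107 and 65.0, and for LOC4340728, at 4962 and 4952. It lay between the lines for the unmatched probe set that fell, at 336 and 269.

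Some transcripts passed from well measured in 1 line to the dim end of the array in the other. Below the 40th percentile on both Ossl arrays and above the 60th on both OsPE arrays were 19 probe sets that passed, JAZ2 the only named gene among them. Of the 19, 1 was for a reporter or vector sequence, and 8 were below the 40th percentile in Osoc too. The other way were 26, with GER2 and LAC19 as the named genes, and 8 of these were also dim in Osoc. A signal at the dim end does not show that a transcript is missing.

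Probe sets of 1 gene did not always share a call. Of 2871 genes with over 1 tested probe set, 590 had at least 1 that passed, 83 had all passing in 1 direction and 5 had calls in both directions. Among these 5, CIPK10, a kinase of the family above, fell 2.33-fold on its dimmest probe set, with 320.0 and 357 in Ossl, against 773 and 847 in OsPE. It also fell 1.3-fold on a brighter probe set, with 4279 and 4336 in Ossl, against 5625 and 5594 in OsPE. On another it rose 1.19-fold, and on its brightest it did not pass. QM1 fell 3.95-fold on 1 probe set, with 1606 and 1442 in Ossl, against 6192 and 5935 in OsPE, and rose 1.17-fold on another. No direction is given for these genes. For the 191 list members that passed, 49 other probe sets were tested, of which 15 passed in the same direction, 25 had the same sign without passing, 9 had the opposite sign without passing and 0 passed the opposite way.

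Calls were spread over the genome, with 10.3% of the tested genes of chromosome 8 and 13.2% of those of chromosome 3 passing as the lowest and highest shares. Runs of neighbouring genes that changed at least 2-fold in the same direction, with at most 2 genes between them, numbered 17, all of genes higher in Ossl. On each chromosome 12 to 43 genes were at least 2-fold higher and 2 to 14 lower, so fewer lower genes could form runs. Whether the runs exceed that base was not tested. The longest, of 3 genes each, were the chromosome 2 run with DTC1 and CYP71Z7, and a chromosome 10 run that starts with Cht2.

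Osoc gives values from another line, although each comparison shares arrays with the others. Against OsPE 7.46% of the probe sets passed in Osoc, and between Ossl and Osoc 11.2% passed. Of the 443 probe sets at least 2-fold higher in Ossl than in OsPE, Osoc was also above OsPE in 116, below it in 21 and did not pass in 306. Of the 318 at least 2-fold lower, Osoc was also below OsPE in 95, above it in 12 and did not pass in 211. Among the named genes, ML read 725.5 and 729 and Pir7b 1556 and 1519.8 in Osoc, both arrays above both Ossl arrays. Cht2 at 2425 and 2155, CYP71P1 at 888 and 724 and MS at 1087 and 1030.4 lay between Ossl and OsPE. CM-LOX2 at 91.1 and 126 and CPS4 at 32.3 and 16.5 had no array near the Ossl level. ARD1 at 213 and 154, with ITPK1 and SPY above, was nearer to Ossl than to OsPE.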

How the data were processed

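The 6 arrays (2 per line) came as 1 table of deposited signal intensities, 1 value per probe set, made by the authors with GCOS 1.2 per the submitters' processing notes; the algorithm that summarised the probes is not stated there. Every array had a trimmed mean of 500.1 to 501.6, so the values were already scaled. Signals were set to log2(signal + 16), and the 123 AFFX control probe sets were left out, but not the reporter and vector probe sets. A probe set was tested when it lay above its array's 40th percentile on at least 2 of the 6 arrays. All 6 arrays were fitted with limma 3.58.1 in R 4.3.3 (linear model per probe set, then empirical Bayes with its prior variance following mean signal), with 3 residual and 8.98 prior degrees of freedom, and p-values were adjusted by Benjamini-Hochberg over all tested probe sets. The arrays are called biological replications, but nothing says that they came from separate sets of plants, so p-values measure the spread between these arrays, which may be technical.

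Of the probe sets, 22436 matched 1 gene, 95 several and 34850 none, counting the controls, through platform annotation and the RefSeq gene table (assembly ASM3414082v1), which gave names, chromosomes and gene order. A gene was represented by its brightest tested probe set. Named in full were the 15 named genes with the largest passing change in each direction, among those whose arrays did not overlap between the lines. Up to 4 members per list were also named by adjusted p. Further members named beside them were chosen after their values were seen. The lists and symbol patterns were chosen with earlier results of these data known. Folds are ratios of signal + 16, and none is given where both arrays of the lower line lay below the 40th percentile. The code was tested on simulated data. Tables and figures used Python 3.11.15, pandas 2.3.3 and matplotlib 3.10.9.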

Additional observations from a re-analysis of the deposited data

How the results depend on the processing

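The total of 3138 probe sets stayed within 1.5 times under 13 of 17 alternatives. It was 382 without the variance trend (300 of them also among the 3138) and 1598 at an adjusted p below 0.01. Leaving out 1 array gave 1495 (without OsPE replicate 1) to 2781 (without Osoc replicate 2), with 1520 without OsPE replicate 2, 2096 without Ossl replicate 2 and 2545 without Ossl replicate 1; the cause was not tested. Offsets of 1 and 64 gave 3018 and 3246, quantile normalisation 3133, centring on the median 2361, no filter 2163 and the 4 arrays of the compared lines alone 2636. With the replicate block 3132 passed, 2968 of them shared, but the numbers do not pair the samples: deviations of same-numbered Ossl and OsPE arrays had a correlation of 0.0009989.

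For the 30 genes named in full, 469 of 509 refits kept the call, 40 lost it and 0 turned the direction. AGO17, CBF3, DTC1, GH3-8, HMG1 and LAC4 lost it in several alternatives, and ARD1, CYP99A2, JAZ13, MET1-2, Os4CL2, OsMAS and OsSAP11 without the trend alone. Of 1512 recounts of lists, 278 moved over 1.5 times. Signal near the dim end limits calls: 0.222% passed in the dimmest group of probe sets.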

Other observations

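Of 64 probe sets on the array for reporter and vector sequences, 26 were bright enough to be tested and 2 passed in the comparison of the lines. One read 29543.5 and 32871 in Ossl, against 18108 and 16594.5 in OsPE, a log2 difference of 0.85 (adjusted p = 3.62e-06 with limma). The other read 10.1 and 5.7 in Ossl, against 111 and 97.8 in OsPE, with both Ossl arrays below their 40th percentiles (adjusted p = 0.0111 with limma).

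AARE1 was among the genes whose probe sets were called in both directions. Its brightest probe set had 1711 and 1768 in Ossl, against 3242 and 3559 in OsPE, a log2 difference of -0.96. A second had 1428 and 1659.9 in Ossl, against 834 and 814.5 in OsPE, a log2 difference of 0.89. The third fell like the first, with 204.5 and 159.2 in Ossl, against 537.6 and 452.4 in OsPE, a log2 difference of -1.37. In Osoc the first read 6844 and 7372 and the second 119.6 and 62.8, so that both Osoc arrays lay above both OsPE arrays on the first probe set and below them on the second.

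The C3H zinc finger proteins had few calls, with 1 of 44 higher, OsC3H33, and 1 lower, OsC3H12. OsC3H12 fell 1.37-fold on another of its probe sets as well. MT-1-4b, CRSH2, SPY and ITPK1 kept their calls in all 17 alternatives run, as did BURP16, Cht2, Pir7b, ML, MS, CYP71P1, CYP71Z7, CPS4, CM-LOX2, GER2, DREB1B, JAZ2 and OsVIT1.2.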
